A study of Mus musculus with 6 samples.

Results

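T lymphocytes of mouse mammary tumors were examined as single cells in droplet libraries of 3 tumor dissociations. Cells were first kept when they held 200 to 4000 detected genes and at most 25% of mitochondrial counts. A count here is a unique molecular identifier (UMI), the tag that marks 1 captured RNA molecule. A kept cell was taken as a T lymphocyte when the counts of Cd3d, Cd3e, Trac, Tnfrsf4 and Icos summed to at least 3. The sum of Nkg7, Gzmb, Gzmc, Xcl1 and Klrd1 also had to be at most 2 times that sum. The cell could hold at most 2 counts of the complement genes C1qa, C1qb and C1qc together, and at most 2 of Pecam1. Kept cells as a whole were not held to the complement and Pecam1 limits. This rule found 539 cells among 17562 kept tumor cells, 24527 tumor cells in the matrix and 58561 cells of the whole series. The 60 min control gave 163 of them from 5736 kept cells, the 15 min platform interval 115 from 5802 and the 60 min platform interval 261 from 6024. The 14 genes of the rule are described where needed but are not results.

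All 3 libraries came from breast tumors of MMTV-PyMT mice aged 10 weeks, in which a mammary tumor virus promoter drives the polyoma middle T oncogene in mammary epithelium. Minced tumor was digested with collagenase, either for 60 min with agitation, pipetting and vortexing (control) or in a recirculating microfluidic device with a downstream dissociation and filter unit (platform). The platform was emptied at 15 min, and the 60 min interval holds the cells released after that. Live cells were sorted before loading, and kidneys of C57BL/6 mice aged 12 weeks were treated in the same 3 ways. There was 1 library for each condition, so no comparison between conditions has a replicate check and none was tested. Intervals given below are 95% intervals of counting error only, and differences between libraries from sampling, sorting or loading cannot be told apart from the condition. By the study's methods, the conditions of a replicate used tissue of 1 source mouse. For sequencing, the methods give female mice for tumor and male mice for kidney.

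T lymphocytes recognize antigen through a receptor of paired chains, alpha-beta in most cells and gamma-delta in others, which signals through the CD3 chains. CD8 marks killer cells, CD4 marks helper cells, and the transcription factor Foxp3 marks regulatory T cells, which restrain the other T cells and are known to gather in mammary tumors. Enzymatic digestion at warm temperature is known to induce immediate early and heat shock genes, so the levels of such genes depend on how a tissue was taken apart.

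The tumor libraries held 90414805 UMIs (control), 101222030 (15 min) and 97006183 (60 min). The T lymphocytes among them held 1166237, 695061 and 1353277 UMIs, with medians per cell of 6901, 4803 and 3907 UMIs and of 2060, 1637 and 1388 genes, so those of the control were the deepest. Their median mitochondrial share was 5.16, 4.82 and 4.84%. Because a gene is found more readily in a deep cell, shares of cells with a gene are also given as the share expected when 1000 UMIs are drawn from each cell, called the thinned share. In the whole tumor matrix, 57 cell barcodes stood in 2 libraries. No barcode was shared among the T lymphocytes, and the barcodes of 2 of them also stood in another library. Cells that met the limit on the T cell sum but held over 4000 genes were left out (12 control cells, 11 of the 15 min and 19 of the 60 min library). No doublet caller was run.

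The label was checked on receptor genes. At least 1 UMI of Cd3d, Cd3e or Cd3g was found in 516 of 539 cells (95.7%), of Trbc1 or Trbc2, the beta chain constant regions, in 486 (90.2%), and of Trac, the alpha chain, in 358 (66.4%). No UMI of any of these 6 genes was found in 19 cells (3.53%), and in 31 cells the sum came from Tnfrsf4 and Icos alone. Trdc, the delta chain, without Trac marked 60 cells, which is 19.0, 11.3 and 6.13% of the T lymphocytes of the control, 15 min and 60 min libraries. Foxp3 was present in 100 cells. The name conventional T lymphocytes therefore does not hold for all of these cells, and they are called T lymphocytes here. At the lower limit, 34 cells with a sum of 3 had Cd3g at 312 UMIs per 1000000 UMIs of these cells (CPM) and Trbc2 at 351 CPM, against 100.1 and 185 CPM in 20 cells with a sum of 2. At the limit to cytotoxic cells, 59 cells just inside (ratio 1.5 to 2) and 44 just outside (above 2 to 2.5) had Cd3g at 2345 and 2409 CPM and Trdc at 712 and 598 CPM.

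Markers of other cell types were also present. Summed over 10 epithelial markers, the T lymphocytes held 2319, 4272 and 2937 CPM in the control, 15 min and 60 min libraries, against 36105, 42167 and 24254 CPM in all other kept cells. The 10 macrophage markers gave 1434, 1483 and 1017 CPM and the 10 dendritic cell markers 2191, 2400 and 3113 CPM. B cell markers stayed at 94.3, 155 and 81.3 CPM, with 4, 4 and 3 of 7 markers at 0. Granulocyte markers came to 3318 and 8186 CPM in the control and 15 min libraries and to 14.0 CPM at 60 min, and fibroblast markers to 22.3 CPM in the control, 1237 CPM at 15 min and 1346 CPM at 60 min. Cells with at least 3 epithelial, 20 class II, 20 granulocyte or 10 fibroblast counts, limits set after these values were seen, numbered 26, 21 and 28, which is 75 of 539. Whether they are doublets or cells with free RNA was not tested, and values without them are given beside several results below.

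The share of T lymphocytes was highest in the 60 min interval. The control share was 2.84% (interval 2.43 to 3.31%). At 15 min it stood at 1.98%, with an interval of 1.64 to 2.37%, and the 60 min library reached 4.33%, with 3.83 to 4.88%. The 60 min share was 1.49 points above the control (0.820 to 2.17 points), and the 15 min share was 0.860 points below it, a difference of -0.860 points (-1.43 to -0.300 points). Among cells with Ptprc, the CD45 gene, T lymphocytes were 144 of 1600 cells in the control library, 98 of 1335 at 15 min (7.34%) and 198 of 1989 at 60 min (9.95%), and there the 60 min library exceeded the control by only 0.955 points. That interval ran from -0.993 to 2.86 points and so included 0. The 15 min difference among these cells, -1.66 points (-3.63 to 0.348 points), also had 0 in its interval. A Ptprc UMI was found in 198 of the 261 T lymphocytes at 60 min and in 144 of the 163 of the control. Those at 60 min were the shallowest, and the part of depth in this comparison was not tested. Cytotoxic lymphocytes were kept cells with a cytotoxic sum of at least 3 and above 2 times the T cell sum, under the same complement and Pecam1 limits. They had shares of 3.09, 2.40 and 2.22%. Of both kinds together, T lymphocytes made up 47.9, 45.3 and 66.1%, and the 60 min value was 18.1 points above the control (11.0 to 25.1 points). Depth moved with this result, since cytotoxic lymphocytes had medians of 9704, 7956 and 8210 UMIs, and its part was not tested.

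**Figure D1:**
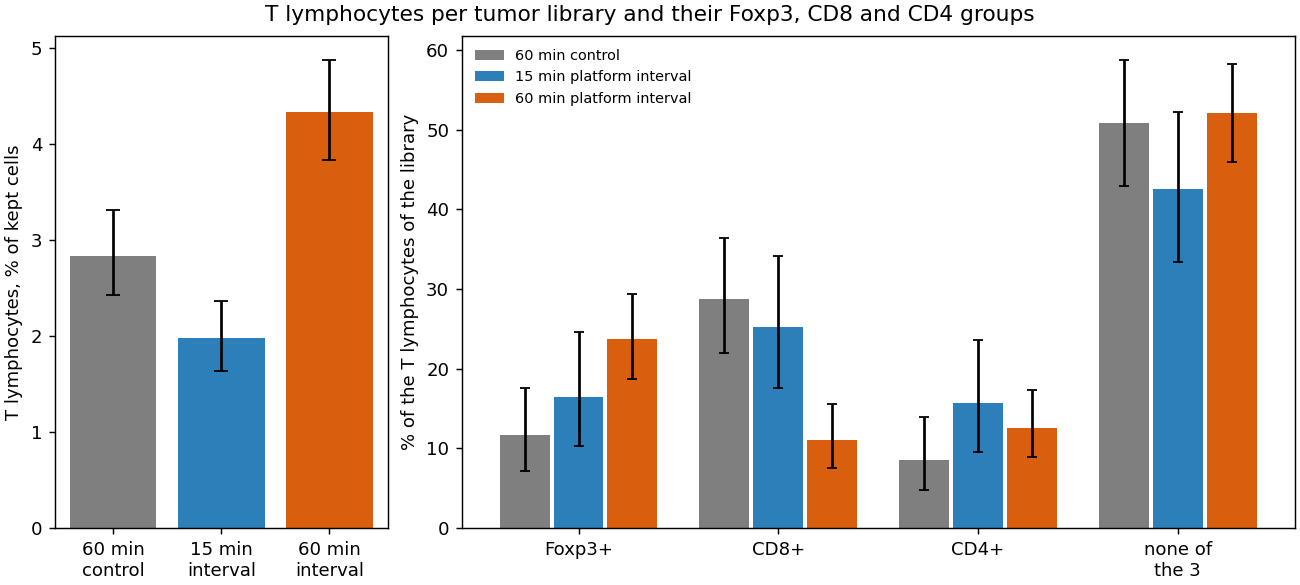
Left, T lymphocytes as a percentage of kept cells in each tumor library. Right, the percentage of the T lymphocytes of each library with a UMI of Foxp3, with CD8 (Cd8a or Cd8b1) but not Foxp3, with Cd4 but neither of those, or with none of the 3. Bars give the share and lines its exact binomial 95% interval. Foxp3+ cells stood at 11.7, 16.5 and 23.8% and CD8+ cells at 28.8, 25.2 and 11.1% in the control, 15 min and 60 min libraries.

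Among the cells that the rule took, the balance of regulatory and CD8 cells differed between the libraries. It is not independent of the rule. Tnfrsf4, which lets cells in, was at 2424, 2938 and 2257 CPM in Foxp3+ cells of the control, 15 min and 60 min libraries. In CD8+ cells it was at 0, 40.7 and 56.4 CPM, and Nkg7, which the rule caps, at 1277, 1265 and 1040 CPM. Cells that entered by Tnfrsf4 and Icos alone numbered 8, 3 and 20. Foxp3 (ENSMUSG00000039521; chromosome X, 7573644 to 7595245 of mm10) was found in 11.7% of control T lymphocytes (19 of 163). The platform libraries had 16.5% at 15 min (19 of 115) and 23.8% at 60 min (62 of 261). The 60 min share was 12.1 points above the control (4.57 to 19.0 points), while the 15 min share was 4.87 points above it with an interval from -3.28 to 13.7 points. Without cells that held markers of other types, the 15 min difference was larger, at 10.7 points, and the 60 min difference was 13.7 points. The 60 min share then exceeded that at 15 min by 2.96 points, in place of 7.23 points among all T lymphocytes. The interval of the latter, -1.94 to 15.2 points, included 0. Thinned shares, which set each cell to the same depth, were 5.68, 7.61 and 10.3%, so the 60 min library again had the highest share. Epithelial cells were taken as other kept cells with at least 3 counts of Epcam, Krt8 and Krt18 together and none of Ptprc. In epithelial cells of the tumor, which should lack Foxp3, a UMI was found in 0.0581, 0.0509 and 0.116% of cells at medians of 8246, 9775 and 9135 UMIs. None of the 177, 139 and 134 cytotoxic lymphocytes held one.

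CD8+ cells without Foxp3 went the other way, with 28.8% of the control T lymphocytes (47 cells), 25.2% of those at 15 min (29 cells) and 11.1% of those at 60 min (29 cells). The 60 min share was below the control by 17.7 points (a difference of -17.7 points, -25.8 to -9.96 points), and thinned shares were 17.9, 16.8 and 6.88%. The 15 min difference was -3.62 points (-13.8 to 7.15 points), and -7.25 points without cells that held markers of other types. Cd8a or Cd8b1 was present in 0.203, 0.356 and 0.116% of epithelial cells. Among the cytotoxic lymphocytes, which the rule keeps apart and which hold further CD8 cells, 24.3, 34.5 and 18.7% had a CD8 UMI. The number of Foxp3+ cells for each CD8+ cell was 0.404, 0.655 and 2.14. The Foxp3+ cells were shallow in every library, at medians of 2748, 2776 and 3248 UMIs, and the CD8+ cells deep, at 8267, 8575 and 8075 UMIs.

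Cells with Cd4 but neither CD8 nor Foxp3 made up 8.59, 15.7 and 12.6%, and the interval of each difference from the control included 0. Cells with none of the 3 genes were the largest group, at 50.9, 42.6 and 52.1%, and 72.7, 68.1 and 76.6% after thinning. The makeup of this group differed between libraries. Trdc was found in 42.2, 26.5 and 12.5% of its cells in the control, 15 min and 60 min libraries, and Fcer1g, a signalling chain of innate-like lymphocytes and myeloid cells, in 61.4, 44.9 and 27.2%. Il1rl1, the receptor of interleukin-33, went the opposite way, at 4.82, 10.2 and 23.5%. In the Foxp3+ cells, Il1rl1 was found in 63.2, 47.4 and 61.3%, and in CD8+ cells in 0%.

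In kidney, the same rule with limits of 3000 genes and 50% mitochondrial UMIs found 679 of 24212 kept cells, with shares of 2.68, 1.29 and 4.16%. Their order over the 3 conditions was that of the tumor. Foxp3 was rare there, with 1, 1 and 6 cells (0.633, 0.926 and 1.45%), and CD8+ cells stood at 38.6, 33.3 and 32.2%. The kidney difference in CD8+ cells between 60 min and control was -6.40 points. Its interval, -15.3 to 2.20 points, includes 0 and overlaps the interval of the tumor. Il1rl1 was found in 1.27, 1.85 and 3.39% of the kidney cells, against 12.3, 13.9 and 33.0% of those in the tumor.

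Outside the rule, the genes that set the T lymphocytes apart most from all other kept tumor cells, ranked by the lowest log2 ratio of the 3 libraries, included Cd28, Cd8b1, Trbc2, Ctla4, Cd2, Cd6, Gimap7, Lat, Gimap3, Il1rl1, Il2ra, Foxp3, Sh2d2a and Tnfsf11. These values describe the cells, which were chosen by their counts, and are no test. Cd28, the main co-stimulatory receptor of T cells, stood at 146, 179.8 and 356 CPM against 0.828, 0.757 and 1.87 CPM in other cells. Cytotoxic lymphocytes had it at 10.1, 23.2 and 37.4 CPM. Ctla4, the inhibitory counterpart of Cd28, was at 59.2, 131 and 282 CPM against 5.64, 3.43 and 12.8 CPM in cytotoxic lymphocytes. Trbc2 differed less between both kinds of lymphocyte, at 1218, 1289 and 1147 CPM against 779, 997 and 609 CPM.

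Levels of single genes were then compared between libraries as UMIs summed over the T lymphocytes of a library and scaled to CPM. In these bulk sums, fewer cells of a kind and less RNA per cell cannot be told apart. A gene entered a comparison with at least 100 UMIs over both libraries, and a gene is called higher or lower past 2-fold on the log2(CPM + 1) scale. Of 2355 genes that entered between 15 min and control, 92 were higher (3.91%) and 66 lower (2.80%), 6.71% in all. Between 60 min and control, 193 of 3036 genes were higher (6.36%) and 64 lower (2.11%), 8.47% in all, and between 60 min and 15 min 120 of 2608 were higher (4.60%) and 72 lower (2.76%), 7.36% in all. Of the called genes, 20, 16 and 23 in the 3 comparisons had more than 50% of the UMIs of the higher library from 1 cell. Each comparison shares a library with the other two.

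Of 14 regulatory T cell genes, 10 entered between 60 min and control, and 4 of them were higher and 1 lower, with a median log2 ratio of 0.82 (-0.17 in all other kept cells). The background shares are the 6.36 and 2.11% above. These genes are not independent of the rule, which lets cells in by Tnfrsf4 and Icos, both present in Foxp3+ cells. Foxp3 had a control level of 29.2 CPM (20.2 to 40.7 CPM), a 15 min level of 47.5 CPM (32.7 to 66.7 CPM) and a 60 min level of 79.8 CPM (65.5 to 96.4 CPM). It was 2.74-fold higher at 60 min than in the control (1.85 to 4.15). Ctla4 (chromosome 1, 60887000 to 60915832) had 59.2, 131 and 282 CPM in the control, 15 min and 60 min libraries, and was 4.77-fold higher at 60 min (3.68 to 6.26). Il2ra, the high-affinity interleukin-2 receptor chain, had 94.3, 86.3 and 203 CPM, so only the 60 min library stood apart. Izumo1r, folate receptor 4, had 10.3, 30.2 and 70.2 CPM and a fold of 6.82 (3.73 to 13.7). Tnfrsf18, the co-stimulatory receptor GITR, did not pass 2-fold at 326, 374 and 553 CPM, and Ikzf2, the transcription factor Helios, was at 789, 586 and 788 CPM. Itgae, the CD103 integrin chain that binds E-cadherin, was the member that was lower, at 232, 211 and 105 CPM (0.453-fold, 0.367 to 0.557).

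Within the Foxp3+ cells, Il2ra was at 606, 436 and 448 CPM, Tnfrsf18 at 1015, 1760 and 1089 CPM and Ikzf2 at 2213, 1905 and 1514 CPM. Ctla4 reached 382, 904 and 584 CPM, 1.53-fold higher at 60 min than in the control. In cells with none of the 3 marker genes, Ctla4 was at 38.3, 74.8 and 213 CPM, a ratio of 5.57. Without the 75 cells that held markers of other types, Foxp3 was at 28.4, 68.4 and 85.9 CPM and Ctla4 at 68.8, 189 and 341 CPM.

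**Figure D2:**
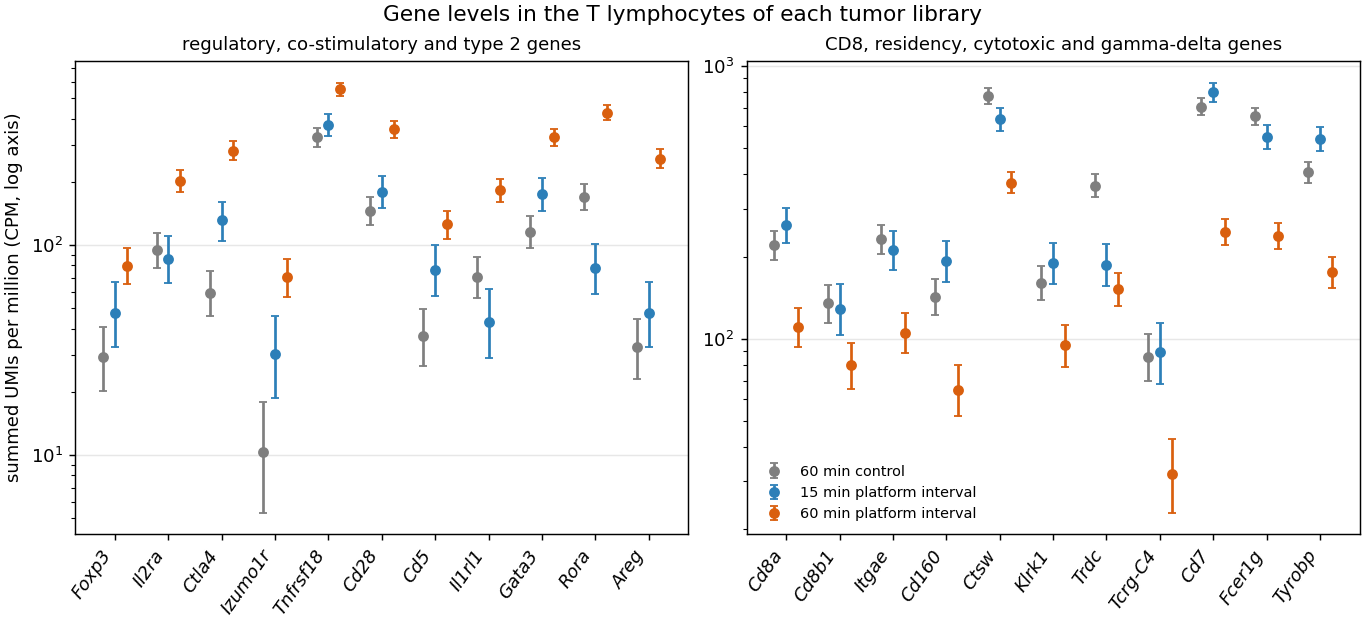
CPM of summed UMIs (log axis) in the T lymphocytes of each tumor library, with exact Poisson 95% intervals. Points of the 60 min interval lie above both other libraries for the genes on the left, such as Ctla4 at 282 CPM, and below both for those on the right, such as Cd7 at 246 CPM.

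Co-stimulatory and inhibitory receptors were mixed. Cd28 was 2.44-fold higher at 60 min than in the control (2.05 to 2.93) and Cd5, a brake on receptor signalling, 3.41-fold higher (2.43 to 4.88), at 36.9, 76.3 and 126 CPM. They were the 2 of 13 receptor signalling genes that passed 2-fold, and none was lower (median log2 ratio -0.01). Within groups the fold of Cd28 at 60 min was 1.72 in Foxp3+, 1.46 in CD8+ and 1.09 in CD4+ cells. It passed 2-fold only in cells with none of the 3 marker genes, at 3.45. The kinase genes Lck and Zap70 had 291, 348 and 248 CPM and 108, 102 and 90.9 CPM. Pdcd1, the checkpoint receptor PD-1, was lowest at 15 min, with 101, 63.3 and 228 CPM, and Cd160, a receptor of cytotoxic T and NK cells, was 0.457-fold at 60 min (0.349 to 0.595), at 142, 193 and 65.0 CPM. They were the only 2 of 4 checkpoint genes that passed. The rise of Pdcd1 at 60 min did not hold in every group, with folds of 0.882 in Foxp3+, 0.248 in CD8+ and 2.32 in CD4+ cells. In cells with none of the 3 marker genes its fold was 3.20. The CD8+ value rested on 33 control UMIs and 5 at 60 min. Lag3, Havcr2 and Tigit had 13 or fewer UMIs in each library and did not enter.

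Summed over all T lymphocytes, genes linked to type 2 and tissue repair functions were higher at 60 min. They may not be independent of the rule, which lets cells in by Tnfrsf4 and Icos. Those 2 genes together were at 496, 609 and 1405 CPM in the control, 15 min and 60 min libraries. In cells with none of the 3 marker genes, Tnfrsf4 was at 206, 232 and 799 CPM. The part of the rule in this result was not tested. Of 8 innate lymphoid type 2 genes, 5 entered between 60 min and control and 5 were higher, against 6.36% of all genes. Their median log2 ratio was 1.94 (0.14 in other cells). Il1rl1 (chromosome 1, 40429570 to 40465415) stood at 70.3, 43.2 and 182 CPM, in 20, 16 and 86 cells, and was 2.59-fold higher at 60 min (2.01 to 3.36). Within the Foxp3+ cells it was lower at 60 min than in the control, at 725, 242 and 384 CPM (0.529-fold). Its fold at 60 min was 1.84 in CD4+ cells and 5.16 in cells without Foxp3, Cd4 or CD8 (the remaining cells). Of the 20, 16 and 86 cells with Il1rl1, 13, 13 and 63 also held Trac, and 12, 9 and 38 held Foxp3. Thinned shares of cells with Il1rl1 were 7.73, 6.30 and 18.1%, against 0.0291, 0.0254 and 0.155% of epithelial cells without thinning. Areg, the growth factor amphiregulin, had 32.6, 47.5 and 258 CPM, in 9, 14 and 82 cells, a fold of 7.91 at 60 min (5.65 to 11.4). Within the Foxp3+, CD4+ and remaining cells its folds at 60 min were 2.26, 5.25 and 8.46. Areg was found in 3.22, 1.78 and 1.94% of epithelial cells. Gata3, the transcription factor of type 2 lymphocytes, had 116, 176 and 327 CPM. Its fold at 60 min was 0.991 in Foxp3+, 1.64 in CD8+, 1.24 in CD4+ and 3.31 in the remaining cells. Klrg1, a receptor that binds E-cadherin, had 19.7, 34.5 and 78.3 CPM, and the fifth gene, Il13, rested on 1, 3 and 5 cells.

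Lineage transcription factors were also higher, with 5 of 8 past 2-fold and none lower at 60 min over control (median log2 ratio 1.33, 0.10 in other cells). They were Gata3, Rora, Maf, Id3 and Batf. The limit from the rule given for the type 2 genes holds for these factors too. Rora, an orphan receptor of type 2 innate and regulatory cells, had 169.8, 77.7 and 426 CPM and so was lowest at 15 min. Its fold at 60 min was 0.788 in Foxp3+, 0.482 in CD8+, 1.08 in CD4+ and 3.35 in the remaining cells. Maf had 43.7, 84.9 and 129 CPM and Batf 40.3, 38.8 and 103 CPM. The fold of Maf at 60 min was 0.799 in Foxp3+, 5.70 in CD4+ and 2.24 in the remaining cells. Runx3, which promotes the CD8 program, was at 217, 169.8 and 127 CPM. Tbx21, of the type 1 program, did not enter.

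Several genes of innate-like T cells were lower at 60 min. Of 4 gamma-delta genes that entered, 3 were lower than in the control and none higher, with a median log2 ratio of -1.25 (-0.89 in other cells). Trdc (chromosome 14, 54142851 to 54148868) had 364, 187 and 152 CPM, in 37, 16 and 22 cells (0.419-fold at 60 min, 0.353 to 0.496). Without cells that held markers of other types, Trdc was at 382, 170.0 and 194 CPM, so that its log2 ratio at 60 min of -0.97 no longer passed 2-fold and 15 min was the lowest library, and the median of the list was -0.87. The gamma chain constant genes Tcrg-C1 and Tcrg-C4 had 77.2, 92.1 and 31.8 CPM and 85.7, 89.2 and 31.8 CPM, so there the 15 min library was close to the control. Reads of the similar gamma constant genes may be shared among them. Fcer1g had 655, 549.6 and 238 CPM and Cd7 710.0, 799.9 and 246 CPM. Of 5 cytotoxic genes outside the rule, 2 were lower and 1 higher. Ctsw, a protease of killer cells, was 0.481-fold (0.431 to 0.537) at 775, 637 and 373 CPM and the inhibitory receptor gene Klrc1 0.369-fold (0.247 to 0.543) at 78.0, 25.9 and 28.8 CPM. Ccl5, a chemokine, was just past the 2-fold limit, with 934, 596 and 1871 CPM, and not past it without cells that held markers of other types, at 574, 415 and 1115 CPM (log2 ratio 0.96). The rule caps the cytotoxic sum, which had medians of 8, 1 and 0 UMIs per cell, and genes that go with that sum are not independent of it.

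Cell cycle genes followed. Of 7 that entered between 60 min and control, 4 were lower and none higher (median log2 ratio -1.27, against 0.07 in all other kept cells). Stmn1, a microtubule regulator of dividing cells, had 360.1, 217 and 97.5 CPM and Pclaf, a partner of the replication clamp, 166, 115 and 30.3 CPM (0.182-fold at 60 min, 0.127 to 0.256). Mki67, the Ki-67 gene, had 49.7, 108 and 13.3 CPM, in 20, 11 and 12 cells, and was 2.17-fold higher at 15 min (1.52 to 3.11), the 1 of 10 cell cycle genes that passed there. Thinned shares of cells with Mki67 were 2.83, 3.81 and 1.08%.

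Summed over all T lymphocytes, several immediate early genes were higher in both platform libraries than in the control. The list of 12 stress response genes, which the study selected to show on these samples and which is therefore no independent evidence, had 6 higher and 0 lower at 15 min (median log2 ratio 0.89) and 7 higher and 0 lower at 60 min (median 1.25). In all other kept cells the medians were 0.02 and 0.55. Fos, a subunit of the AP-1 transcription factor, was highest at 15 min, with a level of 1223 CPM (1142 to 1308 CPM) against 219 CPM in the control (193 to 247 CPM). The 60 min library, at 536 CPM (498 to 577 CPM), lay between them. That is 5.59-fold over the control at 15 min (4.86 to 6.46) and 2.45-fold at 60 min (2.12 to 2.84). Jun and Egr1, also immediate early transcription factors, had the same order, at 172, 734 and 547 CPM and at 38.6, 275 and 106 CPM. Nr4a1, an orphan receptor induced by receptor signalling, was highest at 60 min, with 60.9, 308 and 506 CPM, in 46, 71 and 191 cells. Its fold was 5.06 at 15 min (3.85 to 6.71) and 8.31 at 60 min (6.50 to 10.8). Gadd45b had 277, 443 and 1092 CPM and passed 2-fold at 60 min alone. Without cells that held markers of other types, Fos stood at 106, 923 and 463 CPM and Jun at 126, 336 and 432 CPM, so that Jun was then highest at 60 min.

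**Figure D3:**
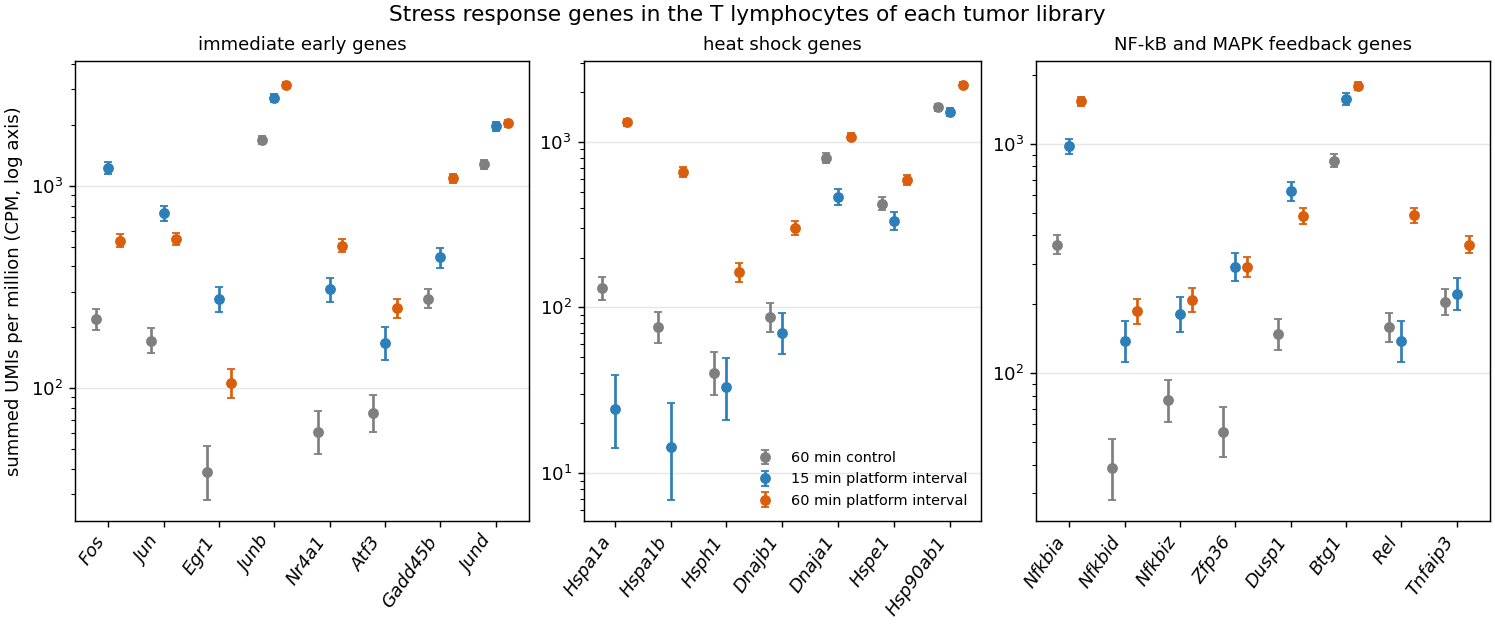
CPM of summed UMIs (log axis) in the T lymphocytes of each tumor library for immediate early, heat shock, and NF-kB and MAPK feedback genes, with exact Poisson 95% intervals. Fos was highest at 15 min (1223 CPM), Hspa1a was lowest at 15 min (24.5 CPM) and highest at 60 min (1315 CPM), and the control was lowest for Zfp36 and Dusp1.

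Feedback genes of the NF-kB and MAPK pathways, which are induced by those pathways and shut them down again, had 6 of 14 higher at 15 min and 8 of 14 at 60 min, and none lower. Their median log2 ratios were 0.88 and 1.07, against 0.05 and 0.70 in all other kept cells. Nfkbia (chromosome 12, 55489410 to 55492647), the NF-kB inhibitor, had 364, 979.8 and 1538 CPM, 2.69-fold over the control at 15 min (2.38 to 3.04) and 4.22-fold at 60 min (3.80 to 4.69). Zfp36, which destabilizes cytokine transcripts, had 55.7 CPM in the control and 292 CPM in both platform libraries. Dusp1, a MAPK phosphatase, had 148, 623 and 487 CPM. Rel, an NF-kB subunit, was at 159 and 138 CPM in the control and 15 min libraries and at 489.9 CPM at 60 min. Cd69, an early activation marker, had 120.0, 476 and 222 CPM and thus the order of Fos. Ltb, a member of the tumor necrosis factor family, had 489.6, 1270 and 1043 CPM.

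Heat shock genes separated the platform intervals. All 7 genes of the list entered between 60 min and control, with 4 higher and none lower and a median log2 ratio of 1.77 (1.15 in other cells). Of the 5 that entered between 15 min and control, none was higher and 1 was lower, with a median of -0.34. Hspa1a (ENSMUSG00000091971; chromosome 17, 34969190 to 34972156), which encodes the inducible chaperone HSP70, had a control level of 130.3 CPM (110.4 to 153 CPM). It was at 24.5 CPM (14.2 to 39.2 CPM) in the 15 min library and at 1315 CPM (1255 to 1378 CPM) in the 60 min library, and none of these intervals overlap. It was 10.1-fold over the control at 60 min (8.55 to 12.0) and 0.188-fold at 15 min (0.107 to 0.311). Hspa1a was found in 28, 10 and 107 cells, or 17.2, 8.70 and 41.0%, and 5.49, 3.20 and 26.9% after thinning. Epithelial cells, in which it was found in 58.6, 46.7 and 77.2% of cells, also use the gene, and all other kept cells had 779.6, 315 and 2295 CPM. The part of free RNA from those cells was not tested. Hspa1b, whose transcript is nearly identical so that reads may be split between both genes, had 76.3, 14.4 and 656 CPM. The co-chaperone genes Hsph1 and Dnajb1 had 40.3, 33.1 and 163 CPM and 87.5, 70.5 and 301 CPM, and Hsp90ab1, a constitutive chaperone, 1619, 1516 and 2220 CPM, which is under 2-fold.

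The bases upstream of the heat shock genes are shown because these genes moved together at 60 min and because the 2 HSP70 genes share them. Each sequence is the 250 bases before the RefSeq start site (GRCm38.p6, written along the transcribed strand, which is the minus strand in each case), with matches to GAANNTTC or TTCNNGAA, 2 facing units of the heat shock element, in capitals.
Hspa1a, chr17:34972157-34972406: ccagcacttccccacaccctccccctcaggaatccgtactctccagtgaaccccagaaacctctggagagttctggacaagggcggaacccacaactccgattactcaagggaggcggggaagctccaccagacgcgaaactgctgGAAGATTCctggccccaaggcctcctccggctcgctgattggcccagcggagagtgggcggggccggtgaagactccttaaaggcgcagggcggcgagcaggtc
Hsph1, chr5:149636337-149636586: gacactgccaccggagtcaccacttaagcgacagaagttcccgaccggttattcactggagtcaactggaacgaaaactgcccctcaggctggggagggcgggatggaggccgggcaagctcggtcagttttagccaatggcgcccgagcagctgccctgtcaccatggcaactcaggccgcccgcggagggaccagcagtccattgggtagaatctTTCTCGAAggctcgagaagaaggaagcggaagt
In Hspa1a the match began 104 bases before the start site, and in Hsph1 33 bases before it. The same window of Hspa1b (chr17:34959239-34959488) was identical to that of Hspa1a at 247 of 250 positions and held the same match. Of the 6 heat shock genes with a window, 5 held a match (83.3%), the exception being Dnajb1, against 4218 of 32851 windows of all genes (12.8%). Both motifs read the same on either strand. A match describes the letters of the window and is not a measured binding site.

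The stress genes were also compared within each group of T lymphocytes. Hspa1a was highest at 60 min in all 4 groups, at 1086 CPM in Foxp3+, 1459 CPM in CD8+, 1193 CPM in CD4+ and 1390 CPM in the remaining cells, against 52.7, 83.6, 277 and 157 CPM in the control. The folds over the control were 20.6, 17.4, 4.30 and 8.88, and the control level of the Foxp3+ cells rested on 4 UMIs. Nfkbia was higher at 60 min by 1.46-fold in Foxp3+, 5.67-fold in CD8+, 2.52-fold in CD4+ and 4.24-fold in the remaining cells. Fos was highest at 15 min in each group, but in CD4+ cells the control was already at 1231 CPM from 14 cells, with a fold of 1.11 at 15 min. At 60 min CD4+ cells went against the sum over all T lymphocytes, with Fos at 335 CPM (0.272-fold of the control) and Jun at 0.462-fold. Several summed rises at 60 min were also small or absent in Foxp3+ cells. Gadd45b, at 1146 CPM in their control, had a fold of 1.13 there, Jun 1.06, Rel 1.00 and Ltb 0.879. Nr4a1 and Dusp1 were at 2.83-fold and 2.02-fold in these cells. In CD8+ cells Gadd45b was at 54.1 CPM in the control, with a fold of 6.03. In the Foxp3+, CD8+ and remaining cells the folds of Fos at 15 min were 5.01, 6.41 and 8.33.

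**Figure D4:**
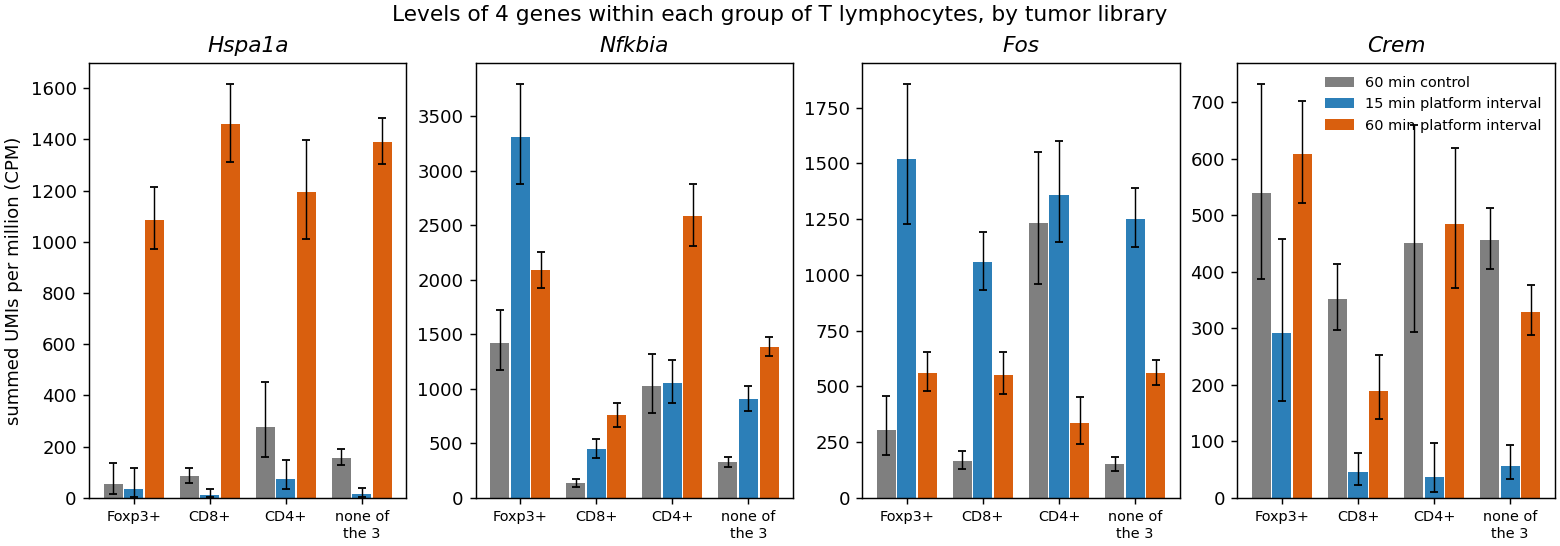
CPM of summed UMIs of Hspa1a, Nfkbia, Fos and Crem within the Foxp3+, CD8+, CD4+ and remaining T lymphocytes of each tumor library, with exact Poisson 95% intervals. Hspa1a was highest at 60 min in every group (1086 to 1459 CPM), and Crem was lowest at 15 min in every group (37.5 to 291 CPM).

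A smaller set was low at 15 min. The 12 genes furthest below the control there were Tiparp, Tmem2, Crem, Hilpda, Sult2b1, Hspa1a, Hk2, Ramp3, Il21r, Gramd3, Mfsd6 and Plac8, with log2 ratios from -2.94 to -1.78, and none of them had most of its UMIs in 1 cell. In all other kept tumor cells Tiparp, Hilpda, Hspa1a, Crem and Ramp3 were also past 2-fold lower, at -2.01, -1.68, -1.30, -1.25 and -1.19. Gramd3 and Mfsd6 were at 0.04 and 0.40 there, and the others, with Hk2 at -0.85, ran from -0.96 to -0.36. Crem, a transcription factor of the cyclic AMP pathway, had 425 CPM in the control, 70.5 CPM at 15 min and 379.8 CPM at 60 min. It was low at 15 min in each of the 4 groups, at 291 CPM in Foxp3+, 44.7 CPM in CD8+, 37.5 CPM in CD4+ and 57.0 CPM in the remaining cells. Crem was also low at 15 min in cytotoxic lymphocytes, at 512, 80.7 and 266 CPM, and in kidney T lymphocytes, at 164, 16.3 and 146 CPM. Tiparp was found in 9 cells at 15 min against 77 in the control (log2 ratio -2.94), Hilpda, a lipid droplet gene induced by low oxygen, in 19 against 94 and Hk2, a hexokinase of glycolysis, in 8 against 40. Hk2 was the only 1 of 9 glycolysis genes past 2-fold at 15 min, and the median of that list was 0.14.

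**Figure D5:**
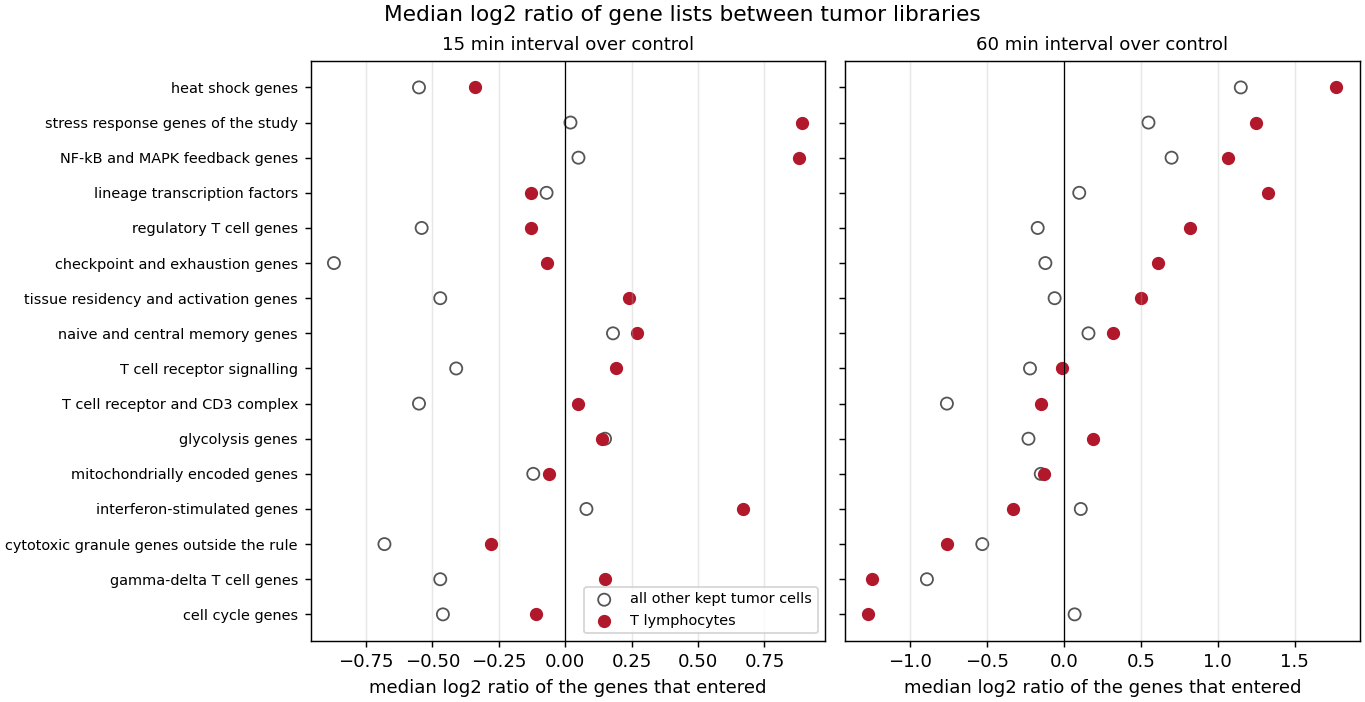
Median log2 ratio of the genes of each list that entered, for the 15 min interval (left) and the 60 min interval (right) over the control, in T lymphocytes (filled) and in all other kept tumor cells (open). Heat shock genes were at 1.77 and cell cycle genes at -1.27 in T lymphocytes at 60 min, and the receptor and CD3 genes near 0 in both comparisons.

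Of the other lists, some stayed close to the control and others were mixed. The 4 receptor genes outside the rule had medians of 0.05 at 15 min and -0.15 at 60 min, with none past 2-fold, and Cd3g stood at 1673, 1692 and 1227 CPM. Mitochondrially encoded genes had medians of -0.06 and -0.13, and none of 9 glycolysis genes passed at 60 min (median 0.19). Interferon-stimulated genes had a median of 0.67 at 15 min with 1 of 7 higher (Irf7, at 64.3, 154 and 43.6 CPM) and of -0.33 at 60 min with none past 2-fold. All 7 lay above the control at 15 min, where the median in other cells was 0.08. Between 60 min and 15 min, 4 of 7 were lower (median -1.09), against 2.76% of all genes. Without cells that held markers of other types, the 15 min median was 0.30 and the median of 60 min over 15 min -0.36. Of 8 naive and memory genes, Il7r, the interleukin-7 receptor, and Klf2, a factor of recirculating T cells, were higher at 60 min, at 162, 206 and 361 CPM and 322, 545 and 672 CPM. Satb1, a chromatin organizer, was low in both platform libraries, at 238, 93.5 and 121 CPM. Of 10 residency and activation genes, 3 were higher at 60 min and none lower, and 3 were higher and 2 lower at 15 min. Their medians were 0.50 at 60 min and 0.24 at 15 min. Of all genes, 6.36% were higher at 60 min, and 3.91% were higher and 2.80% lower at 15 min.

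Secreted cytokines were rare. Of 16 genes, 5 entered between 60 min and control, and 4 were higher (Ifng, Il13, Areg and Ltb). Ifng, interferon gamma, was found in 6, 10 and 21 cells, at 5.14, 53.2 and 81.3 CPM. Il2 had 1, 19 and 61 UMIs in 1, 5 and 11 cells, and Csf2 3, 42 and 63 UMIs in 2, 4 and 11 cells. Il4 was not found in the control and 15 min libraries and had 10 UMIs in 5 cells at 60 min, and Il21 was not found at all. The chemokine receptor genes that entered, Cxcr4 and Ccr2, were both higher at 60 min, at 153, 132 and 333 CPM and 45.4, 57.5 and 102 CPM.

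Many of the largest differences belonged to genes of other cell types. Among the 12 genes furthest above the control, 11 at 15 min and 8 at 60 min had most of their UMIs in 1 cell. At 15 min these were Bgn, Camp, Col1a1, Col1a2, Ccl17, Dcn, Sparc, Col3a1, Saa1, Ngp and Gsn, in which 52.9 to 100.0% of UMIs came from 1 cell. S100a8, a granulocyte gene, had 1947 control UMIs, of which 99.2% came from 1 cell, and 16 UMIs at 60 min. The other genes furthest below the control at 60 min were Retnlg and S100a9, also from 1 cell, and Ifitm1, Pclaf, Sult2b1, Chst12, Gm19585, Fbxo32, Stmn1, Tmem2 and Tiprl, which were spread over cells, with log2 ratios from -3.60 to -1.72. Without cells that held markers of other types, Col3a1 stood at 10.9, 8.29 and 34.9 CPM and S100a8 at 14.2, 10.4 and 1.89 CPM, while Hspa1a stood at 114, 27.0 and 1359 CPM, Nfkbia at 327, 1024 and 1661 CPM and Areg at 40.4, 68.4 and 271 CPM.

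Kidney T lymphocytes had some of these orders and not others. Nr4a1 had 149, 27.8 and 472 CPM in the kidney control, 15 min and 60 min libraries, and so was lowest at 15 min there but lowest in the control in the tumor. Hspa1a had 1820, 37.5 and 1012 CPM in kidney, lowest at 15 min as in the tumor, but higher in the control than at 60 min. Fos had 331, 462 and 467 CPM and Nfkbia 424, 139 and 469.9 CPM. Areg, at 195, 1.63 and 78.8 CPM, was highest in the control. Ctla4 had 77.0, 21.2 and 90.6 CPM. The tissues differ in strain and age as well, and by the study's methods in sex, so these values are given side by side. The difference was not tested.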

How the data were processed

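Tumor and kidney cells were profiled on a droplet platform, with 1 library for each of 3 dissociation conditions per tissue. The authors deposited UMI counts per gene and cell, made with Cell Ranger 3.1.0 against mm10, and aggregated the 3 libraries of a tissue, a step that thins reads to an equal depth per cell. The library of a cell was read from its barcode suffix and the aggregation table. From these counts, cells were selected by the stated limits, UMIs were summed over the T lymphocytes of each library and scaled to CPM, and log2 ratios were taken with a pseudocount of 1. Rule genes were left out of all comparisons. Shares have exact (Clopper-Pearson) intervals, differences of shares Newcombe intervals, levels exact Poisson intervals and ratios exact conditional intervals, all at 95%. With 1 library per condition no test was run. The genes named outside the 31 lists were the 12 highest and 12 lowest log2 ratios past 2-fold whose interval left out 1, and the 15 with the highest ratio to other cells, of which 1 is not reported here. The members, lists and limits were chosen with earlier results of these data known. The calculation was tested on simulated data. Gene positions are from GENCODE vM21 and upstream sequences from RefSeq (GRCm38.p6). Python 3.11.15, numpy 2.4.6, scipy 1.17.1, pandas 2.3.3 and matplotlib 3.10.9 were used.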

Additional observations from a re-analysis of the deposited data

How the results depend on the processing

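No paired analysis was possible because each condition has 1 library and the labels give no shared replicate numbers, and for the same reason no library could be left out. The share of T lymphocytes at 15 min differed from the control by -1.66 points among Ptprc+ cells, and by -0.347 points of kept cells, in place of -0.860, when the cytotoxic sum was held to at most the T cell sum. Counts of genes past 2-fold depended on the count minimum, which sets how many genes are tested, and most on thinning. With at least 50 UMIs, 219 genes were higher and 127 lower at 15 min over control, 318 and 147 at 60 min over control, and 191 and 186 at 60 min over 15 min. With at least 200 UMIs the same counts were 39 and 37, 107 and 30, and 65 and 25. With cells thinned to 1000 UMIs they were 9 and 6, 37 and 7, and 36 and 8, and 81.8% of the calls at 60 min over 15 min were then higher, against 62.5% unthinned. Of 2 further alternatives, chosen after seeing the data, leaving out cells with markers of other types gave 52 higher genes at 15 min over control, 38 lower at 60 min over control and 32 lower at 60 min over 15 min. Leaving out the cell with the most UMIs of each gene gave 45 lower at 60 min over 15 min.

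Some list medians changed sign. At 15 min over control, the regulatory T cell median became 0.05 without cells with epithelial markers and 0.17 without cells of any other type's markers, and the cell cycle median 0.44 and 0.56. The cytotoxic median became 0.01 both without other types' markers and without the largest cell. At 60 min over control, epithelial markers moved to -0.74 and -0.65 under those first 2 settings, and macrophage markers to 0.02 without epithelial markers. At 60 min over 15 min, mitochondrially encoded genes moved to 0.04 with size factors from the median of ratios, dendritic cell markers to -0.27 without epithelial markers, and fibroblast markers to 1.30 without epithelial markers and 0.40 without the largest cell. Medians that also crossed 0, from a value within counting error of it, were checkpoint genes at 15 min over control (-0.07 to 0.02, 0.24 and 0.10), gamma-delta genes (0.15 to -0.13) and macrophage markers (-0.02 to 0.08 and 0.16) in that comparison, receptor signalling at 60 min over control (-0.01 to 0.04 and 0.17) and glycolysis at 60 min over 15 min (0.01 to -0.02). The cause was not tested. The remaining medians kept their sign under the alternatives run.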
